A study of Homo sapiens with 12 samples.

Results

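The 10 genes described here encode serine/arginine-rich (SR) splicing factors: SRSF1, SRSF2, SRSF3, SRSF4, SRSF5, SRSF6, SRSF7, SRSF9, SRSF10 and SRSF11. They were chosen by gene symbol from the 13001 genes of the deposited tables, and all 10 were measured. The study sequenced polyA RNA from LNCaP cells (clone FGC), an androgen-sensitive line from a lymph node metastasis of a human prostate cancer. The series title asks about the splicing of LSD1+8a by SRRM4 in neuroendocrine prostate cancer. The 12 libraries formed 4 groups of 3, transiently transfected with SRRM4, with LSD1+8a, with LSD1 or with the empty vector (EV). SRRM4 is itself an SR-related protein of neurons that promotes the inclusion of microexons. KDM1A encodes LSD1, a demethylase of histones, and the isoform LSD1+8a carries the neural microexon 8a. All groups, EV included, were at passage 8, grew in RPMI 1640 with 10% serum and received Lipofectamine 2000, with fresh medium after 6 hours. Transient transfection leaves a mixture of cells that did and did not take up plasmid, in 1 cell line.

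SR proteins bind pre-mRNA through RNA recognition motifs, often at exonic splicing enhancers, and recruit the splicing machinery through a tail rich in arginine and serine. Kinases of the SRPK and CLK families phosphorylate that tail and so control where the proteins sit and whether they act. Many SR protein genes limit their own transcripts by splicing in a poison exon or intron that sends the mRNA to nonsense-mediated decay, so their mRNA levels reflect both synthesis and this feedback.

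Library totals were 10.88 to 11.49 M counts for SRRM4, 12.11 to 13.36 M for LSD1+8a, 11.66 to 12.57 M for LSD1 and 12.75 to 13.57 M for EV. KDM1A was raised in both LSD1 groups, with 96.3 ± 4.06 CPM (counts-per-million) in SRRM4 cells, 2268 ± 316 CPM in LSD1+8a cells, 540 ± 40.5 CPM in LSD1 cells and 94.3 ± 0.828 CPM in EV cells (SD, n = 3 each). The amount of LSD1 transcript therefore differed between the LSD1 plasmids together with the microexon, and these cannot be told apart in a comparison of both. Counts per gene do not show the microexon, so which of the LSD1 plasmids a library received was not checked. The symbol SRRM4 was not analysed here, so the SRRM4 label was not checked on its own transcript. All 12 markers of luminal prostate cells were measured, and of 18 markers of leukocytes, fibroblasts, endothelium and basal epithelium 5 were measured, none at 0. The summed luminal markers stood at 8333 to 8391 CPM in SRRM4 cells, 8993 to 9334 CPM in LSD1+8a cells, 9269 to 9506 CPM in LSD1 cells and 9195 to 9386 CPM in EV cells. Singly, 6 of the 12 were lower and 1 was higher in SRRM4 than EV cells at an adjusted p under 0.05 in edgeR. Of all genes, 7.68% passed in either direction. The only endothelial marker measured, VWF, had 18.1 to 21.2 CPM in SRRM4 cells and 23.4 to 24.7 CPM in EV cells. The other non-luminal markers overlapped between SRRM4 and EV cells and reached higher in SRRM4 cells. CD68 had 3.85 to 6.89 and 3.87 to 4.92 CPM, and COL1A1 had 21.4 to 29.2 and 20.4 to 24.4 CPM. KRT14 and ITGB4 summed to 7.37 to 8.73 and 6.09 to 7.89 CPM. The part of these differences in the results on SRRM4 was not tested.

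The SRSF transcripts were abundant, and their order was the same after all 4 transfections. Levels are given as TPM (transcripts-per-million), which corrects for transcript length and so allows genes to be compared. SRSF5 was the highest, with 283 ± 8.59 TPM in SRRM4 cells, 306 ± 12.4 TPM in LSD1+8a cells, 267 ± 4.29 TPM in LSD1 cells and 266 ± 5.65 TPM in EV cells (SD, n = 3 each, as for all levels below). SRSF10 was the lowest, with 55.0 ± 3.58 TPM in SRRM4 cells, 52.2 ± 1.99 TPM in LSD1+8a cells, 52.3 ± 2.59 TPM in LSD1 cells and 53.9 ± 0.846 TPM in EV cells. The members thus spanned 4.93-fold in EV cells, where the median over all genes was 18.9 TPM. By mean EV level SRSF5 ranked 438 of the 13001 genes and SRSF10 ranked 2783.

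Between these ends the order was SRSF9, SRSF2, SRSF1, SRSF6, SRSF11, SRSF3, SRSF7 and SRSF4. Their EV means were 246 TPM for SRSF9, 203 TPM for SRSF2, 190 TPM for SRSF1, 168 TPM for SRSF6, 148 TPM for SRSF11, 128 TPM for SRSF3, 95.6 TPM for SRSF7 and 59.9 TPM for SRSF4. In LSD1 and EV cells no neighbours in the order overlapped between their libraries. In SRRM4 and LSD1+8a cells the libraries overlapped for SRSF2 and SRSF1 and for SRSF4 and SRSF10. Compared within each library of these groups, SRSF2 was above SRSF1 in all but LSD1+8a replicate 3. SRSF4 was above SRSF10 in all but SRRM4 replicate 1 and LSD1+8a replicate 1.

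**Figure D1:**
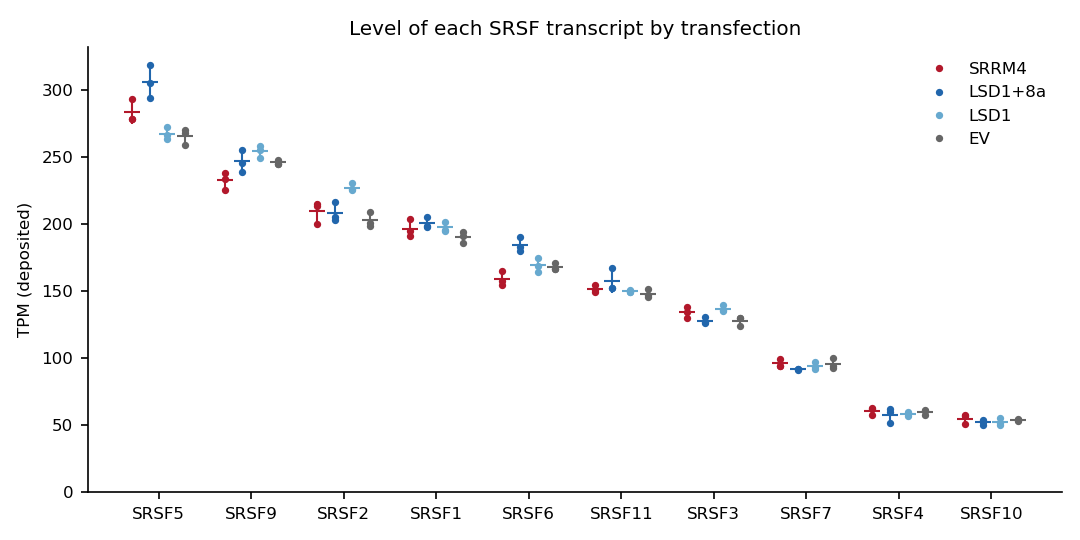
Deposited TPM (y axis) of the 10 SRSF genes (x axis, in falling order) in each library, coloured by transfection, with group means (horizontal ticks) and SD (vertical bars). The order of the genes holds in every group, with SRSF5 between 259 and 318 TPM at the top and SRSF10 between 49.9 and 57.6 TPM at the bottom.

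The 10 genes together took 0.167% to 0.169% of the counts in SRRM4 libraries and 0.170% to 0.174% in LSD1+8a libraries. The share was 0.166% to 0.172% in LSD1 libraries and 0.166% to 0.169% in EV libraries. By this share the LSD1+8a libraries lay above those of SRRM4 and EV. In CPM the sum of the 10 genes was also highest in LSD1+8a cells. Their summed level was 1678 ± 16.5 CPM in SRRM4 cells, 1714 ± 14.8 CPM in LSD1+8a cells, 1684 ± 22.0 CPM in LSD1 cells and 1686 ± 18.1 CPM in EV cells. Summed TPM varied more, at 1578 ± 28.3 (SRRM4), 1632 ± 26.8 (LSD1+8a), 1607 ± 4.96 (LSD1) and 1557 ± 6.67 (EV). The median of all genes in log2(TPM + 1) also lay above EV, by 0.02 in SRRM4 cells and 0.03 in LSD1+8a and LSD1 cells. Each gene had between 702 and 3493 counts per library. In CPM SRSF1 was the steadiest member, with a ratio of 1.03 between its highest and lowest library, and SRSF6 varied the most, with a ratio of 1.19. The CPM values were scaled by TMM factors. Log2 fold changes, their standard errors (SE) and adjusted p-values come from edgeR's quasi-likelihood test, with Benjamini-Hochberg adjustment over all 13001 genes, and a gene is called when its adjusted p is under 0.05.

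None of the 10 SRSF genes passed the edgeR test in any comparison with the empty vector. For SRRM4 against EV, edgeR called 0 of 10 members, beside 7.68% of all genes. At an unadjusted p under 0.05 there was 1 member, SRSF9, beside 20.8% of all genes. For LSD1+8a against EV, 0 of 10 members were called, beside 0.346% of all genes, and 2 members, SRSF5 and SRSF6, had an unadjusted p under 0.05, beside 6.82%. For LSD1 against EV, 0 of 10 were called, beside 0.1% of all genes, and 0 had an unadjusted p under 0.05, beside 5.89%. DESeq2 and limma-voom also called 0 members in each of these 3 comparisons, but other settings did not. On log2(TPM + 1) and log2(TPM + 0.1), limma called SRSF5 in LSD1+8a against EV, with a log2 fold change of 0.20 in both (adjusted p = 0.0412 and 0.0394). With upper-quartile factors, edgeR called SRSF9 in SRRM4 against EV, with a log2 fold change of -0.11.

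The intervals show how large a change these libraries still allow. Over the 30 fold changes against EV, the members' values ran from -6.42% to 7.98%, and their 95% intervals reached from -10.6% for SRSF9 under SRRM4 to 13.2% for SRSF5 under LSD1+8a. For LSD1 against EV the values ran from -2.87% to 3.42%, within intervals from -7.92% to 8.52%. Nothing in the labels states that libraries of 1 group are from separate cultures. P-values and intervals therefore cover just the spread among the libraries at hand, and that spread may be technical. In bulk RNA, fewer cells expressing a gene and less RNA per cell cannot be told apart. The 3 comparisons share their EV libraries and are set side by side here without a test of their overlap.

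**Figure D2:**
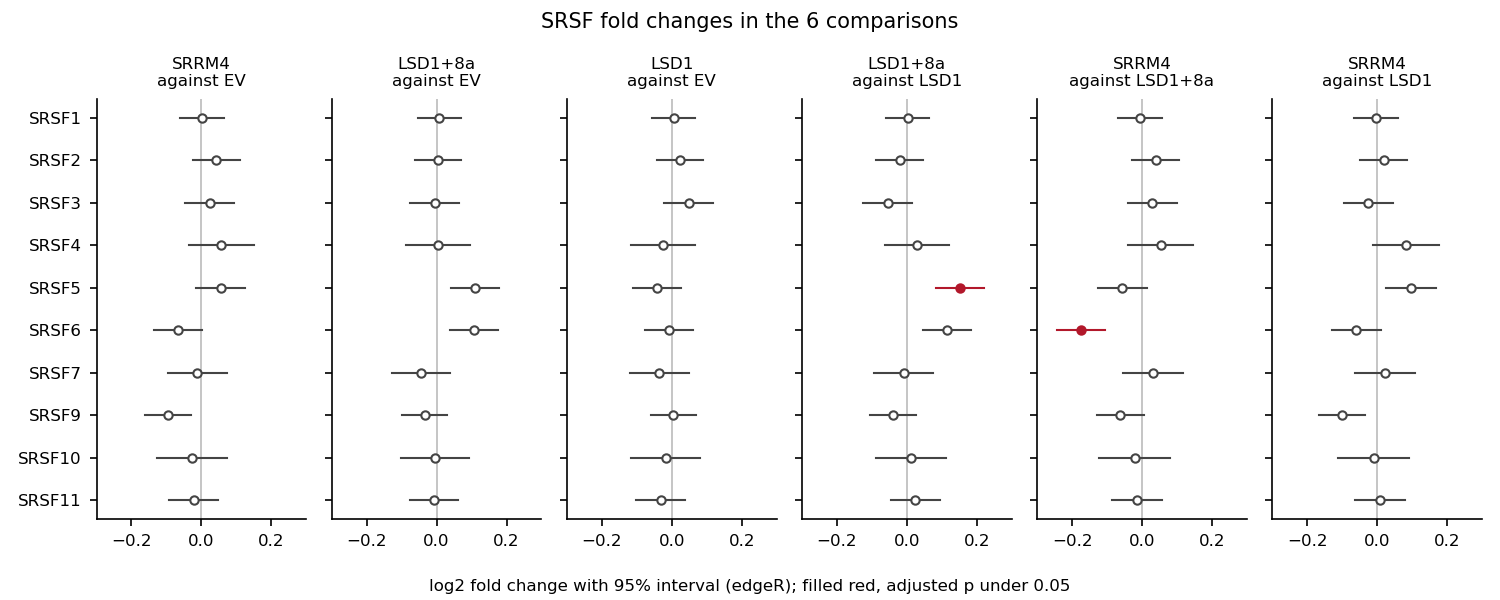
Log2 fold change (x axis) with 95% interval of each SRSF gene (rows) in the 6 comparisons (panels), from edgeR. Filled red points passed an adjusted p of 0.05, which only SRSF5 did in LSD1+8a against LSD1 and SRSF6 in SRRM4 against LSD1+8a.

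SRSF5 and SRSF6 stood apart from the other members. A test of any difference among the 4 groups called these 2 of the 10, beside 7.34% of all genes. For SRSF6 it gave an adjusted p of 0.0042 in edgeR, and for SRSF5 an adjusted p of 0.0119 in edgeR. The next member, SRSF9, had an adjusted p of 0.12 in edgeR, and the other 7 had adjusted p between 0.639 and 0.997. SRSF4, SRSF5 and SRSF6, formerly SRp75, SRp40 and SRp55, form a branch of the family with paired RNA recognition motifs. Without LSD1+8a replicate 3, which held the highest SRSF5 and SRSF6 values of all 12 libraries, the same test called 0 members.

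SRSF6 is an SR protein whose known targets include exon 10 of the tau transcript. It stood at 237, 249 and 234 CPM in the SRRM4 libraries, 262, 272 and 279 CPM in the LSD1+8a libraries, 242, 259 and 249 CPM in the LSD1 libraries and 248, 257 and 250 CPM in the EV libraries. The LSD1+8a libraries were the 3 highest of the 12 and overlapped no other group, while the SRRM4 libraries overlapped those of LSD1 and EV in CPM. In TPM the SRRM4 libraries lay below those of EV, at 154 to 165 against 166 to 171 TPM.

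SRSF6 was lower in SRRM4 cells than in LSD1+8a cells by 11.4% (log2 fold change -0.18, SE 0.0341, 95% interval -0.24 to -0.11, adjusted p = 0.000698 in edgeR). In this comparison 1 of 10 members was called, beside 7.58% of all genes and 3.17% called lower, and 1 had an unadjusted p under 0.05, beside 21.2%. Against EV, SRSF6 differed by -0.07 in SRRM4 cells (adjusted p = 0.257) and by 0.11 in LSD1+8a cells (adjusted p = 0.335), on the log2 scale in edgeR, and neither passed the test. LSD1+8a against LSD1 gave a log2 fold change of 0.12 (adjusted p = 0.263 in edgeR). The call for SRSF6 thus sets its lowest group mean, 240 ± 7.55 CPM in SRRM4 cells, against its highest, 271 ± 8.69 CPM in LSD1+8a cells, with EV cells between them at 251 ± 4.81 CPM.

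SRSF5 is an SR protein that promotes exon inclusion through enhancer sites and had the highest TPM of the 10 in these cells. Its levels were 197, 197 and 194 CPM in the SRRM4 libraries, 199, 203 and 211 CPM in the LSD1+8a libraries, 181, 187 and 183 CPM in the LSD1 libraries and 182, 195 and 190 CPM in the EV libraries. All 3 LSD1+8a libraries lay above every other library, and the SRRM4 libraries lay above those of LSD1 but overlapped those of EV in CPM. In TPM the SRRM4 libraries lay above those of EV, at 278 to 293 against 259 to 270 TPM.

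SRSF5 was higher in LSD1+8a cells than in LSD1 cells by 11.2% (log2 fold change 0.15, SE 0.034, 95% interval 0.08 to 0.22, adjusted p = 0.0288 in edgeR). In this comparison 1 of 10 members was called, beside 0.323% of all genes and 0.208% called higher, and 2 had an unadjusted p under 0.05, beside 6.21%. DESeq2 did not call it (log2 fold change 0.15, adjusted p = 0.0639), and without LSD1+8a replicate 3 the adjusted p was 0.29 in edgeR. It was also lost without LSD1+8a replicate 2 (adjusted p = 0.089), LSD1 replicate 1 (adjusted p = 0.211) and LSD1 replicate 3 (adjusted p = 0.172), each in edgeR. Against EV, the log2 fold change of SRSF5 was 0.11 in LSD1+8a cells (adjusted p = 0.319), 0.05 in SRRM4 cells (adjusted p = 0.382) and -0.04 in LSD1 cells (adjusted p = 0.915), in edgeR.

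Overlap is counted here in CPM, and TPM gave other overlaps for some members. How many of all genes were free of overlap in TPM was not counted. The TPM overlaps given for single members are therefore descriptions without a background. The libraries of 2 groups did not overlap for 2 members in LSD1+8a against EV, SRSF5 and SRSF6, beside 11.8% of all genes, and for the same 2 in LSD1+8a against LSD1, beside 11.7%. They did not overlap for SRSF5 and SRSF6 in SRRM4 against LSD1+8a, beside 25.5% of all genes, and for SRSF4, SRSF5 and SRSF9 in SRRM4 against LSD1, beside 25.6%. In LSD1 against EV they overlapped for all 10 in CPM, beside 11.7% of genes whose libraries did not. For SRRM4 against EV, SRSF9 alone did not overlap, beside 25.3% of all genes. SRRM4 against LSD1 called 0 of 10 members in edgeR, beside 7.05% of all genes, with SRSF5 and SRSF9 at an unadjusted p under 0.05, beside 21% of all genes. DESeq2 and limma-voom called 0 there as well, while edgeR called SRSF9 with upper-quartile factors and in a fit of only these 2 groups (adjusted p = 0.0441).

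**Figure D3:**
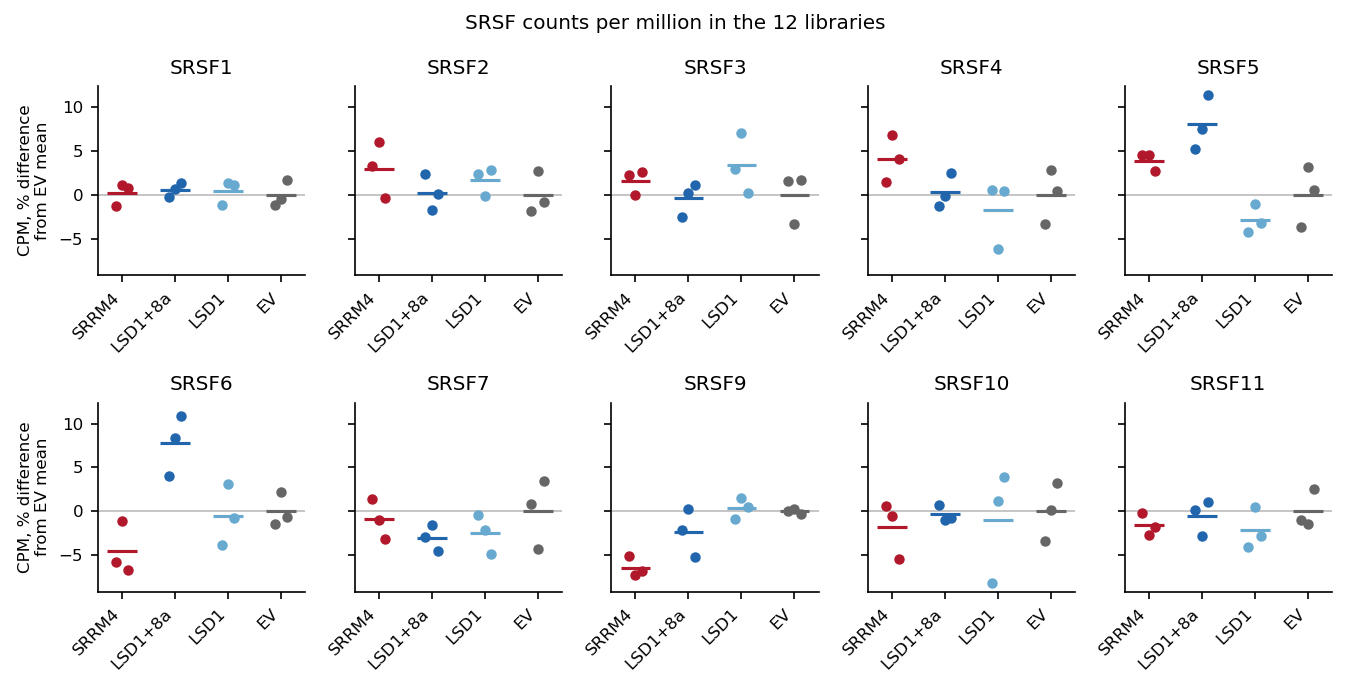
CPM of each SRSF gene (panels) in each library (points) as percent difference from the EV mean (y axis), by transfection (x axis), with group means as horizontal lines. SRSF5 and SRSF6 have their 3 highest libraries in LSD1+8a cells, SRSF9 has its lowest group mean in SRRM4 cells, and SRSF1 stays close to its EV mean in all groups.

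The ratio of SRSF6 to SRSF5 counts within a library needs no scaling between libraries. It was 1.20, 1.26 and 1.21 in the SRRM4 libraries, 1.32, 1.34 and 1.32 in the LSD1+8a libraries, 1.34, 1.39 and 1.36 in the LSD1 libraries and 1.36, 1.32 and 1.31 in the EV libraries. Every SRRM4 library thus lay below the other 9, while LSD1+8a and EV cells had means of 1.33 ± 0.0131 and 1.33 ± 0.0260. Among the 45 pairs of members this ratio varied most between groups for its spread within groups, and it was chosen for that after the values were seen, so it is a description with no test. Against EV on the log2 scale in edgeR, both genes stood at 0.11 in LSD1+8a cells, while in SRRM4 cells SRSF6 stood at -0.07 and SRSF5 at 0.05. None of these was called. On log2(TPM + 1) SRSF5 stood at 0.20 in LSD1+8a cells, while SRSF6 there was at most 0.14 in 23 alternative fits. The near-equal ratios of LSD1+8a and EV cells are thus given for counts only. In TPM the SRRM4 libraries likewise lay below those of EV for SRSF6 and above them for SRSF5.

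**Figure D4:**
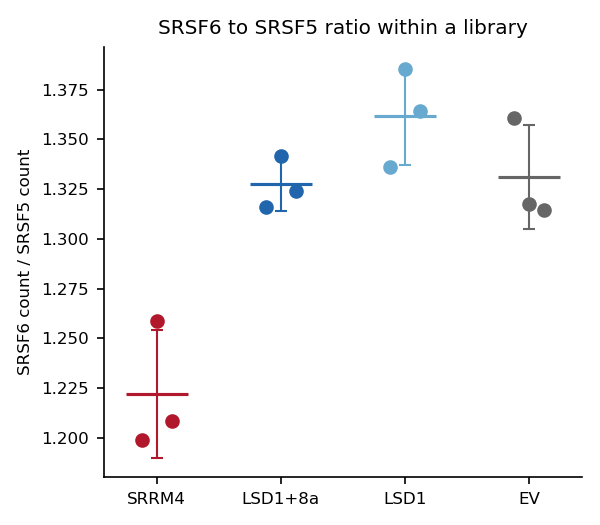
SRSF6 count divided by SRSF5 count (y axis, not starting at 0) in each library (points), by transfection (x axis), with group means and SD. The 3 SRRM4 libraries, at 1.20 to 1.26, lie below the other 9, at 1.31 to 1.39.

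SRSF9 (formerly SRp30c) is a close relative of SRSF1 and acts in constitutive and alternative splicing. It stood at 195, 191 and 192 CPM in the SRRM4 libraries, 202, 206 and 195 CPM in the LSD1+8a libraries, 204, 209 and 207 CPM in the LSD1 libraries and 206, 206 and 205 CPM in the EV libraries. In CPM the SRRM4 libraries were below all LSD1 and EV libraries and overlapped those of LSD1+8a. In TPM they lay below those of LSD1+8a as well, at 225.1 to 238.3 against 238.9 to 255.4 TPM. Against EV the SRRM4 cells differed by -6.42% (log2 fold change -0.10, SE 0.0324, 95% interval -0.16 to -0.03), and this missed the threshold with an adjusted p of 0.0625 in edgeR. Against LSD1 the difference was -6.73%, with an adjusted p of 0.0547 in edgeR. Upper-quartile scaling brought both under the threshold, with adjusted p of 0.0282 against EV and 0.028 against LSD1 in edgeR. SRSF9 shares 1729 exonic bases with GATC on the opposite strand, and whether the counting used strand is not given in the sources used here. GATC itself had a log2 fold change of 0.04 in SRRM4 against EV (adjusted p = 0.802 in edgeR).

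SRSF1, the founding SR protein and a proto-oncogene, was the least variable member in CPM. Its CPM were 234, 239 and 239 in the SRRM4 libraries, 236, 239 and 240 in the LSD1+8a libraries, 234, 240 and 240 in the LSD1 libraries and 234, 236 and 241 in the EV libraries. In CPM the groups overlapped throughout, and no comparison gave a log2 fold change beyond 0.01 in either direction. In TPM the LSD1+8a and LSD1 libraries, with minima of 197.8 and 194.8 TPM, lay above all EV libraries, with a maximum of 194.0 TPM. For SRRM4 against EV the 95% interval was -0.06 to 0.06 on the log2 scale.

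SRSF2 (SC35), a factor of nuclear speckles, gave different pictures in the deposited tables. In CPM its LSD1 libraries stood at 229, 223 and 230, against 219, 229 and 222 in the EV libraries, with a log2 fold change of 0.02 (adjusted p = 0.952 in edgeR). In TPM they stood at 230, 225 and 226 in the LSD1 libraries and 201, 209 and 198 in the EV libraries, without overlap. SRSF2 was not alone in this. SRSF1, SRSF3 and SRSF9 also lay higher in LSD1 than in EV libraries without overlap in TPM, though not in CPM. The share of all genes doing so in TPM was not counted. The log2 of counts per TPM was centred on its median within each library. That removes shifts shared by all genes, such as the 0.03 by which their median log2(TPM + 1) was higher in LSD1 than EV cells. For SRSF2 the centred value was -0.11 in LSD1 cells relative to EV cells (SE 0.0223, unadjusted p = 0.000773, adjusted p = 0.506 in limma), and it was not called. For that quantity limma called 0 of 10 members in LSD1 against EV, beside 0.00882% of the 11336 genes compared, with SRSF2 as the 1 member at an unadjusted p under 0.05, beside 6.14%. It also called 0 members in LSD1+8a against EV, beside 0.0265%, and in SRRM4 against EV, beside 0.00882%. There 0 members had an unadjusted p under 0.05, beside 4.84% of the genes in LSD1+8a against EV and 8.05% in SRRM4 against EV. Against the same LSD1 libraries, the log2 of counts per TPM of SRSF2 differed by 0.13 in SRRM4 cells (unadjusted p = 0.000245, adjusted p = 0.555 in limma) and 0.11 in LSD1+8a cells (unadjusted p = 0.000768, adjusted p = 0.873 in limma). SRSF10 differed by -0.09 in SRRM4 against LSD1 (unadjusted p = 0.0349, adjusted p = 0.832 in limma) and by -0.11 in SRRM4 against LSD1+8a (unadjusted p = 0.0166, adjusted p = 0.748 in limma). These 3 comparisons thus held 2 members at an unadjusted p under 0.05 in SRRM4 against LSD1, beside 5.68% of the genes, 1 in SRRM4 against LSD1+8a, beside 5.87%, and 1 in LSD1+8a against LSD1, beside 4.69%, and none was called. Counts per TPM move with the transcript length assigned to a gene and with which reads each table counted, and these cannot be told apart. SRSF2 also shares 1106 exonic bases with MFSD11 on the opposite strand.

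SRSF3 and SRSF7 (SRp20 and 9G8) serve as adapters for mRNA export besides splicing. SRSF3 had group means of 188 ± 2.58 CPM in SRRM4 cells, 184 ± 3.48 CPM in LSD1+8a cells, 191 ± 6.38 CPM in LSD1 cells and 185 ± 5.26 CPM in EV cells. SRSF7 had 94.2 ± 2.18 CPM in SRRM4 cells, 92.2 ± 1.40 CPM in LSD1+8a cells, 92.7 ± 2.12 CPM in LSD1 cells and 95.1 ± 3.80 CPM in EV cells. For both genes the libraries of every pair of groups overlapped in CPM. In TPM they did not. The LSD1 libraries of SRSF3, at 135 to 140 TPM, lay above those of EV and LSD1+8a, at 124 to 130 and 126 to 130 TPM. The LSD1+8a libraries of SRSF7, at 91.5 to 92.0 TPM, lay below all others, of which the lowest was an LSD1 library at 92.1 TPM.

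SRSF4 had 74.8 ± 1.90 CPM in SRRM4 cells, 72.1 ± 1.40 CPM in LSD1+8a cells, 70.6 ± 2.75 CPM in LSD1 cells and 71.9 ± 2.26 CPM in EV cells. Its SRRM4 libraries lay above those of LSD1 in CPM, though not in TPM, without passing the test (log2 fold change 0.08, adjusted p = 0.317 in edgeR). SRSF10 (SRp38), which represses splicing when dephosphorylated, had 66.8 ± 2.21 CPM in SRRM4 cells, 67.8 ± 0.644 CPM in LSD1+8a cells, 67.3 ± 4.30 CPM in LSD1 cells and 68.0 ± 2.29 CPM in EV cells, with all groups overlapping.

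SRSF11 (p54) is known from neural cells of the mouse to act with SRRM4 on microexons. It had 158 ± 2.09 CPM in SRRM4 cells, 160 ± 3.21 CPM in LSD1+8a cells, 157 ± 3.85 CPM in LSD1 cells and 160 ± 3.54 CPM in EV cells. In CPM these groups overlapped, and the log2 fold change for SRRM4 against EV was -0.02 (95% interval -0.09 to 0.05, adjusted p = 0.777 in edgeR). In TPM the LSD1+8a libraries, at 152 to 167 TPM, lay above those of LSD1 and EV, with maxima of 151.1 and 151.2 TPM.

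Gene structure is where the members share something that their choice by symbol did not use. In the GENCODE v29 annotation all 10 had at least 1 transcript annotated to nonsense-mediated decay, beside 44.4% of 11005 protein-coding genes of the table. A retained-intron transcript was annotated for 8 of 10, beside 59.0% of those genes, and SRSF6 and SRSF11 had none. SRSF5 had 19 annotated transcripts, of which 8 retained an intron, and SRSF6 had 2, of which 1 was coding and 1 was subject to decay. The gene-level tables do not separate these forms, so a level here can include transcripts that make no full protein.

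RefSeq promoter windows, from 250 bases before to 50 after a start site (GRCh38.p14), were matched for 9 of the 10 members with 11 start sites. The windows of the 3 members with the smallest p for any difference among groups are shown on the gene's strand, 5′ to 3′, with motif letters in capitals, for SRSF6 at chr20:43457646-43457945 (plus strand), SRSF5 at chr14:69766892-69767191 (plus strand) and SRSF9 at chr12:120469699-120469998 (minus strand).
SRSF6: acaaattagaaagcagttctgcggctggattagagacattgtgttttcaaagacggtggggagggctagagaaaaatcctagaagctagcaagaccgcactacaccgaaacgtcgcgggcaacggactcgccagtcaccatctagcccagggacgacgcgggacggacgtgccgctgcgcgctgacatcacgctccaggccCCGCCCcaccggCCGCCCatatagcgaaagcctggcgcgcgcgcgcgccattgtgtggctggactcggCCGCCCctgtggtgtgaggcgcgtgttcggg
SRSF5: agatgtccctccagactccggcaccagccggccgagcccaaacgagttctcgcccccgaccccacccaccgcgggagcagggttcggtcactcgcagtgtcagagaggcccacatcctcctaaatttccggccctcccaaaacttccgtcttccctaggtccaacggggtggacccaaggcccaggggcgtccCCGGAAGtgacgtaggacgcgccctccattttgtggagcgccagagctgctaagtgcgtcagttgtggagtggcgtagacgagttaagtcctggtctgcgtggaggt
SRSF9: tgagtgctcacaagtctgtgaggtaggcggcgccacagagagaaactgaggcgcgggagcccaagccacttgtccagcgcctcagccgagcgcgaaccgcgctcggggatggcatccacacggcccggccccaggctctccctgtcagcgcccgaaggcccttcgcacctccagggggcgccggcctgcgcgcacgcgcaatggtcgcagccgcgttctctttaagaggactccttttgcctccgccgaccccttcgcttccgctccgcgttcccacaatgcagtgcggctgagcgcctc
The capitals in SRSF6 mark 3 copies of GGGCGG, the core of SP1 sites, read on the other strand as CCGCCC. The capitals in SRSF5 mark CCGGAAG, the core of sites for ETS factors, and SRSF9 holds none of the motifs searched.

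Both strands were searched for GGGCGG (SP1), CCAAT, the TATA box TATAAA, the cyclic AMP element TGACGTCA, the E-box CACGTG and CCGGAAG (ETS factors), and for the consensus of NRF1 and the core of the interferon-stimulated response element. GGGCGG was found in 4 of the 9 members, beside 44.947% of the 35097 RefSeq windows of this length, and CCGGAAG in 2, SRSF4 and SRSF5, beside 10.26%. TATAAA was found in 3 members, beside 11.534% of windows, and CCAAT in SRSF3, beside 34.604%. From a start site TATAAA lay at -30 in SRSF3 and -27 in SRSF7, but at -206 on the other strand in SRSF11. A member was counted when any of its windows held the motif, while the shares are per window. The other 4 motifs were in no member's window, where 1.849% of all windows held the cyclic AMP element, 7.254% the E-box, 1.239% the NRF1 consensus and 3.576% the core of the response element. The members' windows had a GC content of 53.7% to 74.7%, beside a median of 58.7% over all windows. SRSF5 and SRSF6, whose highest libraries were both those of LSD1+8a, shared none of these motifs.

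The members did not move as a block. Over the 12 libraries the correlations of log2 CPM between members had a median r of 0.04 in 45 pairs, from -0.74 to 0.57, with SRSF5 and SRSF6 as the highest. The 3 libraries of a group share their transfection, and the values are descriptive. The genes most like SRSF6 over the 12 libraries, searched among 8863 genes averaging 4 or more in log2 CPM, were SH3YL1 (r = 0.90), FANCA (r = 0.88), of the Fanconi anaemia pathway, and MAT2A (r = 0.87), which makes S-adenosylmethionine. Genes found in this way follow the member by their choice, so they are given by level, with no test. SH3YL1 had 20.1 ± 0.54 CPM in SRRM4 cells, 22.5 ± 1.2 CPM in LSD1+8a cells, 21.0 ± 0.91 CPM in LSD1 cells and 20.7 ± 0.087 CPM in EV cells.

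The genes most like SRSF5 were LGALS3BP (r = 0.91), a secreted galectin-binding glycoprotein, FNBP4 (r = 0.87) and ZNF514 (r = 0.84). LGALS3BP had 59.4 ± 3.30 CPM in SRRM4 cells, 64.8 ± 3.91 CPM in LSD1+8a cells, 51.1 ± 0.401 CPM in LSD1 cells and 51.4 ± 2.06 CPM in EV cells. The genes most like SRSF9 were SLC33A1 (r = 0.92), an acetyl-CoA transporter, TMEM18 (r = 0.91) and RACGAP1 (r = 0.89), which acts in cytokinesis. SLC33A1 had 58.3 ± 2.25 CPM in SRRM4 cells, 62.0 ± 1.83 CPM in LSD1+8a cells, 65.6 ± 0.507 CPM in LSD1 cells and 67.1 ± 0.356 CPM in EV cells.

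The lists of genes around the SR family held few called genes against EV, and their counts are read beside the share of all genes called. For LSD1+8a against EV, edgeR called 0 of the listed kinases, import and export factors, SR-related proteins, hnRNP proteins and decay factors, beside 0.346% of all genes, and 1, 0, 3, 3 and 1 of them had an unadjusted p under 0.05, beside 6.82%. For LSD1 against EV it also called 0, beside 0.1% of all genes, with 1, 0, 5, 3 and 2 at an unadjusted p under 0.05, beside 5.89%. Of 9 measured kinases of SR proteins, 1 fell in SRRM4 cells against EV, beside 7.68% of all genes called in either direction. This was CLK3, with 117 ± 2.99 CPM in SRRM4 cells and 129 ± 5.58 CPM in EV cells (log2 fold change -0.15, SE 0.0391, adjusted p = 0.0151 in edgeR). The median of the kinases was 0.01 on the log2 scale, beside 0.00 over all genes. The lowest kinase value, -0.57 for SRPK3, came from a gene at 1.71 ± 0.261 CPM in SRRM4 cells and 2.55 ± 0.104 CPM in EV cells and was not called (adjusted p = 0.159 in edgeR), and it is named after its value was seen.

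Of 33 measured SR-related proteins, 1 rose and 1 fell in SRRM4 cells against EV, beside the same 7.68% of all genes called, with a median of 0.02 on the log2 scale. A count of 2 in 33 is near that background and is no result about the list. RBM39, an RNA-binding cofactor of splicing related to U2AF65, had 270 ± 4.38 CPM in SRRM4 cells and 251 ± 3.21 CPM in EV cells (log2 fold change 0.11, adjusted p = 0.0289 in edgeR). SREK1, a regulatory SR-like splicing protein, had 83.9 ± 3.35 CPM in SRRM4 cells and 92.5 ± 1.81 CPM in EV cells (log2 fold change -0.14, adjusted p = 0.0361 in edgeR). Of 26 hnRNP proteins, which often oppose SR proteins at splice sites, 1 rose, a share below the 7.68% of all genes. HNRNPDL had 154 ± 5.40 CPM in SRRM4 cells and 137 ± 2.10 CPM in EV cells (log2 fold change 0.17, adjusted p = 0.00271 in edgeR), and the median of the list was -0.01.

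The 4 import and export factors and the 17 factors of nonsense-mediated decay held no called gene against EV, with 0 and 4 genes at an unadjusted p under 0.05 for SRRM4, beside 7.68% of all genes called and 20.8% at that unadjusted p. The leading export genes by the test of any difference were NXF1 and NXT1, the mRNA export receptor and its partner, with log2 fold changes of 0.09 and 0.15 for SRRM4 against EV (adjusted p = 0.293 and 0.398 in edgeR). Among the decay factors SMG1, a kinase of UPF1, had a log2 fold change of 0.08 (adjusted p = 0.177 in edgeR). SRSF8, the other measured gene of the family, had a log2 fold change of 0.03 for SRRM4 against EV (adjusted p = 0.692 in edgeR). The members' own medians were -0.01 for SRRM4, 0.00 for LSD1+8a and -0.01 for LSD1 against EV, beside 0.00 over all genes in each.

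**Figure D5:**
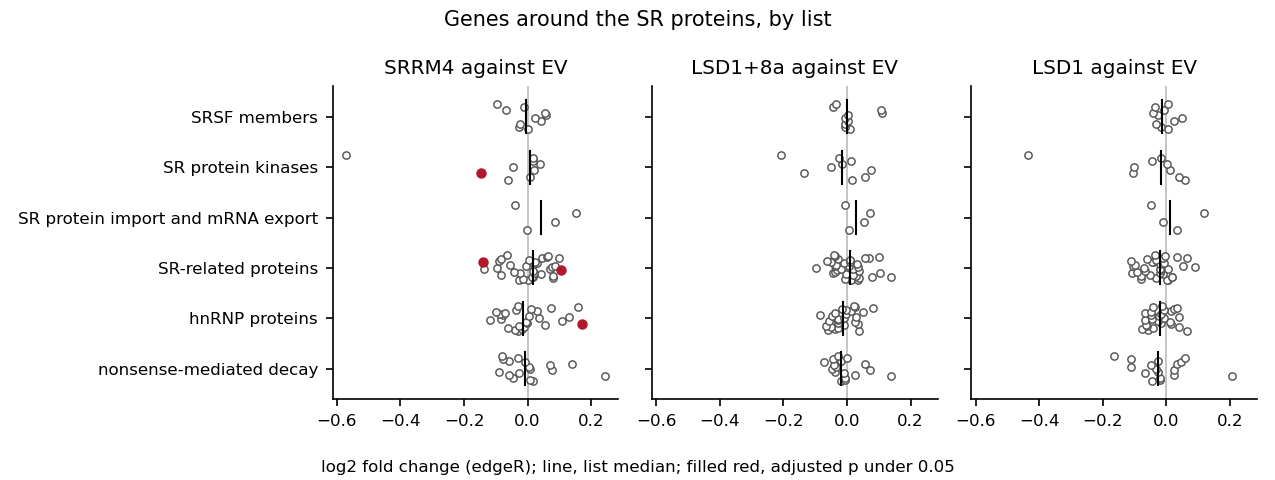
Log2 fold change (x axis) against EV of each gene (points) in the SRSF family and the related lists (rows), for the 3 transfections (panels), with list medians as vertical lines and filled red points at adjusted p under 0.05 in edgeR. The filled points are CLK3, SREK1, RBM39 and HNRNPDL, all in SRRM4 against EV.

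In the authors' deposited table of comparisons with EV, 0 of the 10 members had an adjusted p under 0.05. Across all genes, 563 were under it for SRRM4, 44 for LSD1+8a and 19 for LSD1, where only 651 genes, 2 members among them, carry an adjusted p in the authors' deposited table. The authors' deposited table gives SRSF9 a log2 fold change of -0.10 for SRRM4 with an adjusted p of 0.166. For LSD1+8a the authors' deposited table gives SRSF5 and SRSF6 log2 fold changes of 0.11 each, with adjusted p of 0.633 and 0.618.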

How the data were processed

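RNA-seq was carried out on 12 LNCaP libraries in 4 groups of 3. Per the file headers, the deposited tables hold whole-number counts per gene and, per the file headers, TPM per gene. The authors' deposited comparison table adds log2 fold changes and p-values (raw and adjusted) for each transfection against EV. The tools listed in the submitters' processing notes are STAR 2.5.3a and RSEM 1.2.31, with build hg19. Which step made which table is not given in the sources used here. Depth is the total count over the 13001 genes.

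Counts were tested in edgeR 4.0.16 (R 4.3.3, limma 3.58.1) with TMM factors, filterByExpr (which removed no gene, lowest total 168 counts) and quasi-likelihood F tests (robust) from a single model for all 4 groups. P-values were adjusted over all genes and called under 0.05. CPM and TPM are means ± SD over 3 libraries, and SE belong to log2 fold changes. The biological coefficient of variation was 2.98%. Alternatives were RLE and upper-quartile factors, KDM1A removed, other filters, DESeq2 1.42.0, limma-voom, limma-trend on log2(TPM + 1) and log2(TPM + 0.1), a block for replicate number, fits of 2 groups and leaving out each library. The procedure was tested on simulated data. Replicate pairs differed by more than sampling noise (chi-square per degree of freedom 1.44 to 2.88).

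The 10 members, the gene lists and the tests were chosen with earlier results of these data known. Named genes were the 10 members, listed genes called against EV (otherwise the 2 with the smallest p for any difference among groups), the 3 genes most correlated with each of the 3 leading members, and KDM1A. Counts per TPM (limma, at least 50 counts and 1 TPM per library) were added after the data were seen. Gene structures came from GENCODE v29 and promoters from RefSeq, both on GRCh38, matched by symbol. SRRM4, SRRM3 and SRSF12 were not analysed here, and 1 gene that the rule names is not reported here.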

Additional observations from a re-analysis of the deposited data

How the results depend on the processing

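Of 1380 member values under 11 other settings and 12 fits without 1 library, 7 lost a call, 7 gained one and none that was called in either fit changed sign. The fit without a filter repeats the main fit, because the filter removed no gene. Some fits leave out a library that is not in the comparison at hand, so these alternatives are not independent checks. SRSF6 in SRRM4 against LSD1+8a stayed called in all 23 (log2 -0.21 to -0.15, adjusted p 0.000242 to 0.0124). SRSF5 in LSD1+8a against LSD1 was called in 16 of 23 (log2 0.13 to 0.19, adjusted p 0.0153 to 0.29). The members called there fell to 0 with DESeq2 and with log2(TPM + 1) and log2(TPM + 0.1), and lay between 0 and 1 without 1 library. LSD1+8a against EV had 1 member with log2(TPM + 1) and 1 with log2(TPM + 0.1) (SRSF5, adjusted p 0.0412 and 0.0394). Upper-quartile factors gave 1 member (SRSF9) in SRRM4 against EV and 1 in SRRM4 against LSD1, where the fit of only the 2 groups also gave 1 and leaving out a library gave 0 to 1 (1 without EV replicate 2 or LSD1+8a replicate 1). For any difference the range without 1 library was 0 to 2 members. The cause was not tested. The 18 correlations between same-numbered libraries ran from -0.16 to 0.14 with 1 over 0.1. For LSD1+8a and EV all 3 were positive (0.08 to 0.14), and for LSD1 and EV all 3 were negative (-0.16 to -0.09). Such values cannot show whether same-numbered libraries shared a culture or day, which the labels do not state. With a replicate block the same 0, 0, 0, 1, 1, 0 and 2 members were called, and 887 genes against 999 in SRRM4 against EV. Counts over all genes for SRRM4 against EV were 999 (581 higher, 418 lower), 1058 with upper-quartile factors (497 higher, 561 lower), 563 with DESeq2, 327 (254 higher, 73 lower) with log2(TPM + 1), 325 with log2(TPM + 0.1) and 661 without SRRM4 replicate 2. For LSD1+8a against EV they were 45 (37 higher), 24 (23 higher) with either TPM setting and 66 (42 higher) without LSD1+8a replicate 1. For LSD1 against EV they were 13 (6 higher), 19 (1 higher) with DESeq2, 6 (5 higher) with either TPM setting, 20 with only the 2 groups and 5 without LSD1 replicate 3. For LSD1+8a against LSD1 they were 42 (27 higher), 21 (19 higher) with log2(TPM + 1) and 19 (17 higher) with log2(TPM + 0.1). For SRRM4 against LSD1+8a they were 986, 529 with DESeq2, 211 and 203 with the TPM settings and 561 to 1081 without 1 library. For SRRM4 against LSD1 they were 916, 499 with DESeq2, 185 and 178 with the TPM settings and 488 to 1001 without 1 library. For any difference they were 954, 601 with DESeq2, 201 and 204 with the TPM settings and 530 to 1123 without 1 library. No scaling moved the median of all genes by over 0.1 on the log2 scale. At 702 to 3493 counts a member, with 3 libraries a group and a median SE of 0.0342 (log2), changes of a few percent were not detectable.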
